A study of Mus musculus with 50 samples.

Results

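Genes of the endothelium and the blood-brain barrier were followed through ribosome-associated and whole-tissue RNA of the mouse nucleus accumbens (NAc), a ventral striatal region of the reward circuit. The genes are Cldn5, Ocln, Cdh5, Pecam1, Slc2a1, Abcb1a, Flt1, Kdr, Tek and Tie1, that is, 10 of the 24552 gene symbols in the count tables. They were chosen by symbol for their place in the vessel wall, and Cldn5 because it is linked to stress susceptibility in this region. The rule uses no measured value, though the genes were chosen with earlier results of these data known. All 10 symbols were present in both tables.

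RNA was counted in 46 libraries from RiboTag (RT) mice and in 4 libraries from RT mice that also carried a floxed Sirt1 gene. The mice of the stress experiment (strain C57BL/6, 8-12 weeks old) were RT; D1-Cre or RT; D2-Cre and express an HA-tagged Rpl22 ribosomal protein in cells with Cre, which the D1-Cre and D2-Cre transgenes drive in medium spiny neurons (MSNs) of the direct and the indirect pathway. Mice were either undefeated controls housed with their own strain (Con) or were exposed to chronic social defeat stress (CSDS) for up to 10 days and then sorted by a social interaction test into resilient (Res) and susceptible (Sus) groups. An antibody to HA pulled down ribosomes and their mRNA (IP) from a homogenate of NAc punches of 2 mice pooled by similar interaction scores, and the remaining homogenate of some pools gave the input, which holds RNA of all cells in the tissue. There were 4 Con, 4 Res and 5 Sus D1 IPs, 5 IPs of each stress group in the D2 line, and 3 inputs for each stress group in each line. The 4 further IPs are labelled Sirt1-KO, come from male RT; Sirt1-floxed; D1-Cre mice of the control condition, and have no input of their own among the samples used here. Each library is a pool, and each Cre line is a BAC transgene that need not mark every cell of its class or that class alone.

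Brain endothelial cells seal the vessel wall with tight junctions, in which claudin-5 (Cldn5) is the main sealing protein and occludin (Ocln) an accompanying one. VE-cadherin (Cdh5) and PECAM-1 (Pecam1) join neighbouring endothelial cells at adherens junctions and at cell borders. Barrier transport is carried by GLUT1 (Slc2a1), which lets glucose in, and by P-glycoprotein (Abcb1a), which pumps drugs and other lipophilic compounds out. The remaining genes encode receptor tyrosine kinases of the vessel: VEGFR1 (Flt1) and VEGFR2 (Kdr) bind VEGF ligands, TIE2 (Tek) binds angiopoietins, and Tie1 is its co-receptor. Neither Cre line is designed to act in endothelium, and the RNA of these genes in an IP is therefore read against the input.

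The 10 genes lie on 6 chromosomes of the mouse build GRCm38. Cldn5 (ENSMUSG00000041378.2) spans chr16:18776847-18778262 on the plus strand, Kdr (ENSMUSG00000062960.10) chr5:75932827-75978458 on the minus strand and Abcb1a (ENSMUSG00000040584.8) chr5:8660077-8748575 on the plus strand. Cldn5 and Kdr overlap no other annotated gene and share 0% of their 50-base exon stretches with other genes. Abcb1a shares 22.5% of its exon stretches, mainly with its neighbour and paralogue Abcb1b, so its counts carry an uncertain part.

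Promoter sequence is shown for 4 genes: the tight-junction gene Cldn5, the glucose transporter Slc2a1, and the paired VEGF receptors Kdr and Flt1, which the measurements below set apart from each other. Each run is the 250 bases before the transcription start in the RefSeq table for GRCm38.p6, 5′ to 3′ on the gene's strand, with capitals for matches to AGGAAG (the core bound by ETS factors), GGGCGG (the GC box of Sp1 and KLF factors), TATAAA or ACGTG (the hypoxia response core), searched on both strands. They come from chr16:18776597-18776846 (Cldn5, plus), chr4:119108495-119108744 (Slc2a1, plus), chr5:75978456-75978705 (Kdr, minus) and chr5:147726012-147726261 (Flt1, minus).
Cldn5: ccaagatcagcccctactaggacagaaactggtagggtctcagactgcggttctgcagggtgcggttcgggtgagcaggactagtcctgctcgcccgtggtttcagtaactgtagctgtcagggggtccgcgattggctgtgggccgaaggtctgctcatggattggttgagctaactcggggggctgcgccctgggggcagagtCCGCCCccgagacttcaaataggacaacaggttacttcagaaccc
Slc2a1: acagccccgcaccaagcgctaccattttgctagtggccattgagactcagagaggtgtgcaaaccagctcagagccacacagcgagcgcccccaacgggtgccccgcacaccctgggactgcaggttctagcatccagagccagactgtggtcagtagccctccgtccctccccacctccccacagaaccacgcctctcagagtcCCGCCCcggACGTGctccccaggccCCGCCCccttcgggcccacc
Kdr: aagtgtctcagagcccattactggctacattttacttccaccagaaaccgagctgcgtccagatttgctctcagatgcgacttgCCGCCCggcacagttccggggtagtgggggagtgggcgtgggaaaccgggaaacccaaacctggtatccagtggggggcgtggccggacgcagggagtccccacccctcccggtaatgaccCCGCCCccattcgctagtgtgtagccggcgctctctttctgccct
Flt1: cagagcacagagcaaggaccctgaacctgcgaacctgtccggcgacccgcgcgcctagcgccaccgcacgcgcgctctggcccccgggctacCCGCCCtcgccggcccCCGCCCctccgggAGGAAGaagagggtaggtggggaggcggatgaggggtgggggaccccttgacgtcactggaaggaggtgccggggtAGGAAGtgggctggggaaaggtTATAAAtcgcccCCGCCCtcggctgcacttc

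The 4 windows share the GC box, and only the Slc2a1 and Flt1 windows held any of the other motifs. Cldn5 held 1 GC box and none of the other 3 motifs, Kdr held 2 GC boxes alone, Slc2a1 held 2 GC boxes and 1 hypoxia core, and Flt1 held 3 GC boxes, 2 AGGAAG matches and 1 TATAAA. The 9 promoter rows matched to members covered 8 of the 10 (Ocln has 2 rows, Cdh5 and Pecam1 none). Of these rows, 6 held GGGCGG, 3 held AGGAAG, and 1 each held TATAAA and ACGTG. The Abcb1a row, which held AGGAAG, covers chr5:8566841-8567090. It lies apart from the Abcb1a span given above, which starts at 8660077. Among all 32851 promoters of the same length, GGGCGG was present in 32.7%, AGGAAG in 29.5%, ACGTG in 16.6% and TATAAA in 12.4%. A match is a description of letters only, and no binding was measured.

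Each library held 18384265 to 31785984 counts on genes (18384265 to 28179940 in inputs, 21591075 to 31009626 in IPs of the stress experiment), which gave the members 50 to 1367 counts per input but 1 to 629 per IP. Levels below are CPM, that is, counts scaled to the size of the library with TMM factors, and differences are log2 fold changes with their standard error (SE) from edgeR's quasi-likelihood fit across all genes. No pair of libraries in a group was a duplicate. The libraries of the stress experiment were sequenced in 4 sets that the labels do not assign, so no value within a set can be given. Whether the libraries labelled Sirt1-KO shared any of these sets is not stated. A difference between them and the D1 Con IPs therefore cannot be told apart from one of sequencing set. The input libraries carried the markers of the tissue, with MSN markers higher in IPs and glial markers lower (medians below). Fewer cells of a type and less RNA per cell cannot be told apart in bulk RNA.

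Between genes, levels are given per kilobase of exon. In the 18 inputs Slc2a1 was the highest member at 13.0 ± 0.965 CPM per kilobase (SD), followed by Cldn5 at 9.65 ± 0.961, Abcb1a at 3.11 ± 0.374 and Flt1 at 2.54 ± 0.279. Each of these ranked above the next gene in 18 of 18 inputs. Cdh5 (1.86 ± 0.242), Pecam1 (1.77 ± 0.219) and Tek (1.71 ± 0.240) had no fixed order, with Cdh5 above Pecam1 in 9 of 18 inputs and Pecam1 above Tek in 9. Ocln (1.04 ± 0.187), Kdr (1.02 ± 0.158) and Tie1 (1.02 ± 0.148) formed the lowest group and did not separate either.

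The first comparison asked whether the barrier genes differed between stress groups in whole NAc tissue. Between Sus and Con mice, at the threshold the study used (unadjusted p under 0.05), 0 of the 10 members were called, against 4.51% of all 15063 genes tested, and 7 of the 10 log2 fold changes were above 0. No gene of any kind passed the same test after adjustment over all genes. The plot of the input libraries by stress group shows the 3 groups side by side for each gene.

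**Figure D1:**
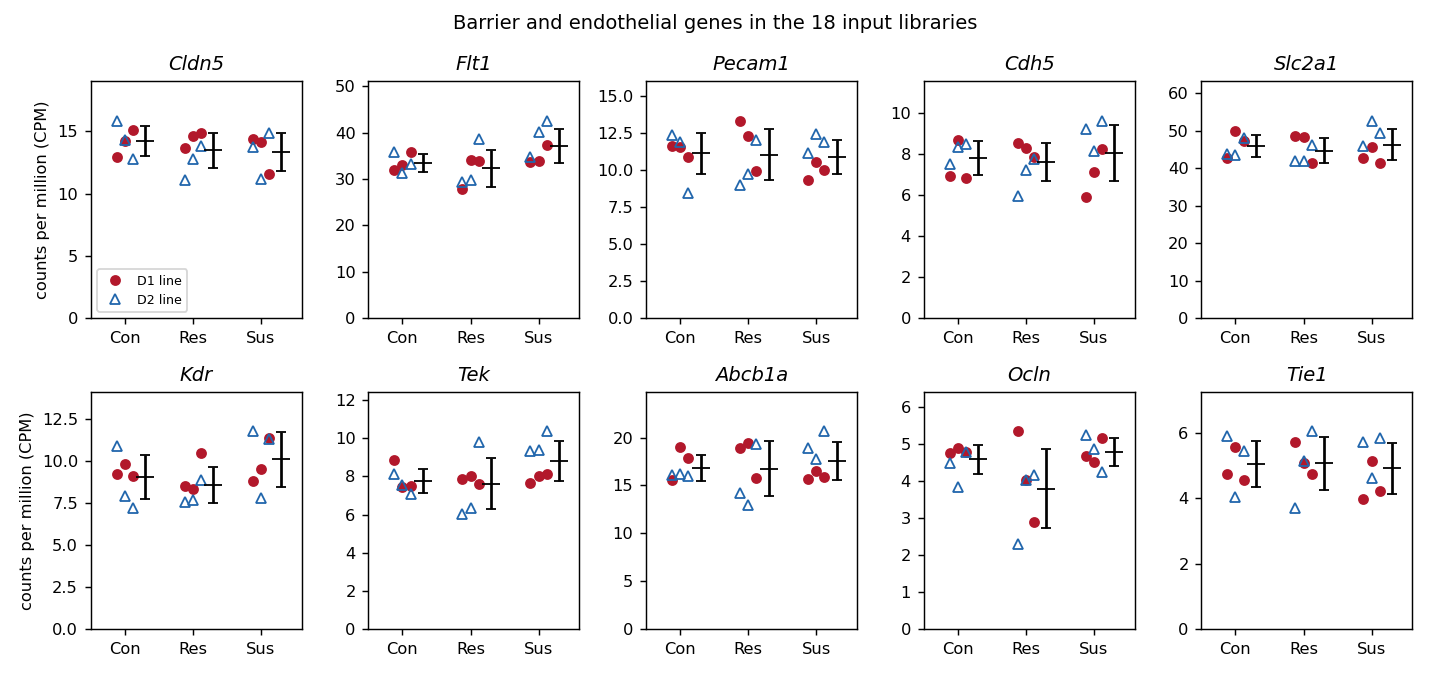
CPM (vertical axis, from 0) of each member in the 18 input libraries, by stress group on the horizontal axis; filled circles are D1-line pools, open triangles D2-line pools, and the black mark is the mean with its SD over 6 libraries. The 3 groups overlap for all 10 genes, and Flt1 and Ocln are the members with p under 0.05 between Sus and Res.

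For Cldn5, the 6 Con inputs lay at 12.8 to 15.9 CPM with a median of 14.3, the 6 Res inputs at 11.1 to 14.9 with a median of 13.7 and the 6 Sus inputs at 11.2 to 14.9 with a median of 13.9. The groups overlapped over most of their range. The Sus minus Con difference was -0.09 on the log2 scale (SE 0.09, edgeR adjusted p = 0.979), with a 95% interval of -0.27 to 0.09. An exact two-sided permutation test of the log2 CPM over 924 divisions of the libraries gave p = 0.303 for a difference of -0.096, and the smallest p this exact test allows is 0.00216. Res minus Con was -0.08 (edgeR adjusted p = 1) and Sus minus Res was -0.01 (interval -0.19 to 0.17).

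Relative to the mean log2 CPM of the other 9 members, Cldn5 stood 0.30 ± 0.107 higher in Con, 0.28 ± 0.118 higher in Res and 0.14 ± 0.210 higher in Sus inputs (SD, 6 libraries each). The Sus libraries spread from -0.13 to 0.45 on this scale, against 0.18 to 0.40 in Con and 0.15 to 0.47 in Res, and the groups overlapped.

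Among the remaining genes of cell contact, Ocln was the only junction gene of the set with a stress difference, and it lay between the defeated groups. The Con inputs lay at 3.84 to 4.90 CPM around a median of 4.78, the Res inputs at 2.31 to 5.36 around 4.04 and the Sus inputs at 4.26 to 5.26 around 4.78. Res held both the lowest and the highest library, so the groups overlapped. Sus was higher than Res by 0.34 (SE 0.14, edgeR adjusted p = 0.903), and without 1 of 3 libraries it was 0.24 to 0.30 and no longer called (D1 Res input replicate 3, D2 Res input replicate 1 or D2 Sus input replicate 1).

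Flt1, the VEGF receptor with the highest level per length, was the other member that differed between Sus and Res. Con inputs reached 31.2 to 35.8 CPM with 33.2 as their median, Res inputs 27.8 to 38.6 with 31.9 and Sus inputs 33.7 to 42.6 with 36.004. The Sus libraries occupied the upper part of the range, but 3 Res libraries lay among or above the lowest Sus ones. Sus was higher than Res by 0.20 (SE 0.08, edgeR adjusted p = 0.903), and without D2 Sus input replicate 3 it was 0.16 and no longer called. Against Con, Flt1 was 0.15 higher in Sus (interval -0.01 to 0.31) and -0.06 in Res, and these comparisons share the Con libraries. With the replicate number as a block the Sus against Con value was 0.14 and was called, as it was without any of 3 single libraries (D1 Con input replicate 3, D2 Res input replicate 3 or D2 Sus input replicate 1, 0.15 to 0.18).

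In all, 2 of 10 members were called between Sus and Res, both higher in Sus, where 5.47% of all 15063 genes were called, 3.01% higher and 2.46% lower. The count was 1 in D1-line inputs alone, 5 in D2-line inputs alone and 1 to 4 when 1 library was left out. Kdr (0.24, SE 0.12) and Tek (0.21, SE 0.11) had values of the same size that missed the threshold. The remaining 6 members lay between -0.04 and 0.08, among them Slc2a1 (0.05, interval -0.07 to 0.18) and Pecam1 (-0.01, interval -0.24 to 0.21). Between Res and Con 0 of 10 members were called, against 3.25% of all genes (1.49% higher, 1.76% lower), and Ocln had the largest value at -0.28 (interval -0.58 to 0.02).

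The transporters Slc2a1 and Abcb1a were the members called when the Sus against Con difference was compared between the mouse lines. In D1-line inputs Slc2a1 measured 42.8, 50.04 and 47.2 CPM in Con and 42.8, 45.8 and 41.3 in Sus, whereas in D2-line inputs it measured 43.7, 43.4 and 47.9 in Con and 45.9, 52.7 and 49.3 in Sus. The groups overlapped in each line. The Sus minus Con value was -0.11 within the D1 line and 0.13 within the D2 line, and the difference between lines was -0.23 (SE 0.11, edgeR adjusted p = 1).

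For Abcb1a, the D1-line inputs were 15.6, 19.0 and 17.9 CPM in Con and 15.7, 16.5 and 15.8 in Sus, and the D2-line inputs were 16.1, 16.2 and 16.0 in Con and 19.0, 17.8 and 20.7 in Sus. In the D2 line every Sus input was above every Con input, while in the D1 line the groups overlapped. The values within the lines were -0.13 and 0.25, and the difference between them was -0.37 (SE 0.17, edgeR adjusted p = 1). These were 2 of 10 members, where 1.91% of all genes were called, 0.949% in that direction and 0.963% in the other, and 14 of 18 analyses that left out 1 input changed this count, which ranged from 0 to 3. The direction was not particular to the transporters, since 9 of the 10 line differences were below 0 and 1 above (Cldn5, 0.03). Tek (-0.35) and Pecam1 (-0.30) had larger values than Slc2a1 but were not called. In D2-line inputs Tek measured 7.10 to 8.13 CPM in Con and 9.34 to 10.4 in Sus, also without overlap. With only 3 libraries on each side, ranges can separate without a difference. The share of all genes that separate in this way was not counted.

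Across the 18 inputs the members moved together only in part. Pearson's r over 45 pairs of members ran from -0.09 to 0.75 with a median of 0.42, and 44 of the 45 were above 0, the highest being Flt1 with Tek and Slc2a1 with Abcb1a (both 0.75), then Tek with Abcb1a (0.72). The genes with the profile most like that of Cldn5 among 15063 were Gsap (r = 0.84), Pxmp4 (0.80), Wwc2 (0.77), Fyn (0.77), Rnf26 (0.76), Prpf4 (0.75), Syt9 (0.75) and Fabp7 (0.75), none of them a member. These libraries share line, stress group and sequencing set in ways the labels give only in part, so the r values are descriptions.

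Other vascular genes were taken from lists of junction, transporter, endothelial, angiogenic, mural and fibroblast genes, of which 85 of 90 were tested in inputs. Between Sus and Con, 8 were called higher and 0 lower, against 2.68% and 1.83% of all genes, and 5 of these 8 were among the 20 endothelial identity genes. Vwf, the clotting factor that endothelium stores and secretes, measured 6.35 to 9.60 CPM in Con inputs (median 8.26) and 8.78 to 18.4 in Sus inputs (median 11.9), a difference of 0.58 (SE 0.16, edgeR adjusted p = 0.979). Ly6a measured 5.12 to 6.26 CPM in Con and 6.36 to 16.97 in Sus inputs, with no overlap, a difference of 0.58 (SE 0.19). Without D2 Sus input replicate 2 the difference was 0.30 and still called, but in D1-line inputs alone it was not called.

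Marveld2 (tricellulin, 1.07), the amino acid transporter Slc38a5 (0.51) and the endothelial phosphatase Ptprb (0.19) were also higher in Sus than in Con, Marveld2 on 3 to 22 counts per library in these groups. The Ptprb call was lost without D2 Sus input replicate 1 (0.14), with library totals in place of TMM (0.13), and within each line alone (0.15 in D1, 0.22 in D2). The Slc38a5 call was lost in D1-line inputs alone and the Marveld2 call in D2-line inputs alone. Between Res and Con, Slc38a5 (0.43) and Eng (0.23) were higher and Esam (-0.27) and Erg (-0.33) lower, and for each of these 4 genes there were at least 3 libraries whose omission ended the call. Between Sus and Res, 6 of the 85 were called higher and 3 lower, against 3.01% and 2.46% of all genes, the 3 being the fibroblast genes Col1a2 (-0.60), Lum (-1.09) and Col3a1 (-0.75). Without D1 Res input replicate 1 these were -0.31, -0.52 and -0.34, and none was called. Esam, an endothelial adhesion molecule, measured 4.07 to 5.59 CPM in Res and 5.87 to 6.5 in Sus inputs, with no overlap (0.29, SE 0.11). Its call was lost within each line alone. Ly6c1, a surface antigen of endothelium (0.38, SE 0.12), the junction scaffold Tjp1 (0.09, SE 0.03), the insulin receptor Insr (0.08, SE 0.03) and Marveld2 (0.84, SE 0.35) were also higher in Sus than in Res. The Tjp1 and Insr calls were lost within each line alone and with library totals. Those of Ly6c1 and Marveld2 were lost in D1-line inputs alone. Without D2 Sus input replicate 2 the Ly6c1 difference was 0.22 and still called, the Insr call was lost on leaving out either of 2 libraries (D1 Sus input replicate 1, 0.070, or D2 Res input replicate 1, 0.072), and the Marveld2 call on leaving out any 1 of 4 (0.68 to 0.74).

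Markers of other cells in the inputs are given beside these values. The summed level of 6 fibroblast genes was 16.9 to 30.3 CPM in Con, 14.5 to 63.2 in Res and 14.9 to 21.6 in Sus, and that of 13 mural genes 169 to 183, 152 to 215 and 162 to 195. Of 5 red blood cell genes, 4 had no counts. Alas2, the heme synthesis enzyme of red cells and the fifth, was singled out after its values were seen: it measured 0.725 to 1.41 CPM in Con, 2.82 to 5.94 in Res and 1.67 to 8.60 in Sus inputs, so every defeated library lay above every Con library (Sus against Con 2.02, edgeR adjusted p = 0.224). The part of these cells in the results was not tested.

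The second comparison asked how far these transcripts were removed when ribosomes were pulled down from D1- or D2-MSNs. All 10 members fell in the IPs of both lines, at fold change over 1.5 and adjusted p under 0.05, and for all 10 the highest IP lay below the lowest input of the same line. Of all 15404 genes tested, 43.1% were called in D1 IPs (29.3% lower, 13.8% higher) and 43.6% in D2 IPs (30.8% lower, 12.8% higher). The plot of depletion by gene gives each value with its interval.

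**Figure D2:**
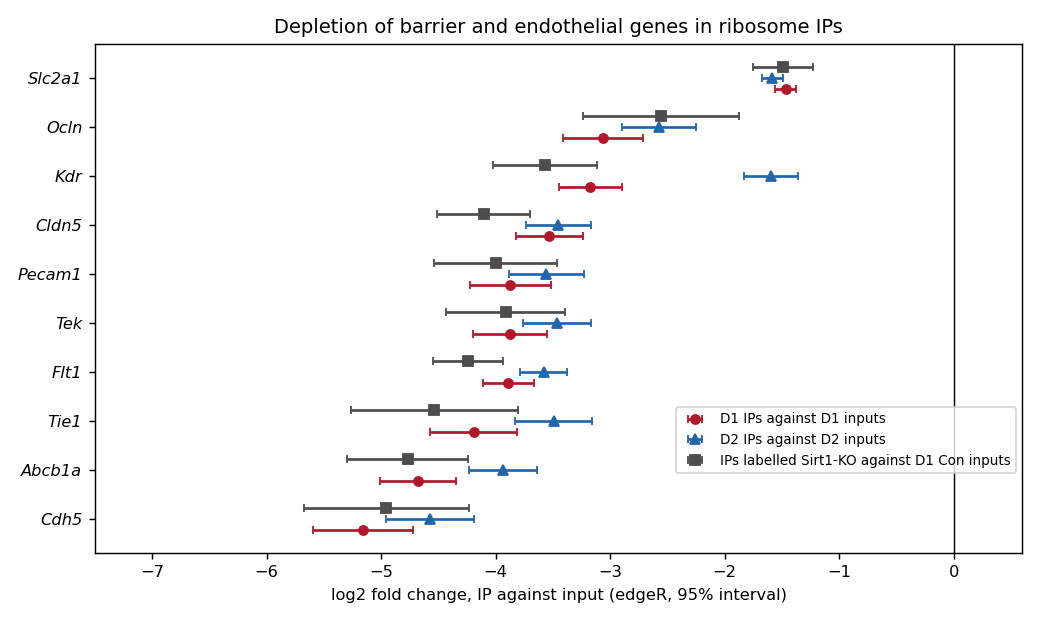
log2 fold change of each member (horizontal axis) with its 95% interval from edgeR, for D1 IPs against D1 inputs (circles), D2 IPs against D2 inputs (triangles) and IPs labelled Sirt1-KO against D1 Con inputs (squares). All intervals lie below 0; Cdh5 is the lowest in D1 IPs at -5.16, Slc2a1 the nearest to 0 at -1.47, and Kdr has its D2 value at -1.60 against -3.18 in D1.

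The junction genes were depleted to a small part of their input. Cldn5 fell from 11.6 to 15.1 CPM in the 9 D1 inputs (median 14.2) to 0.913 to 1.75 in the 13 D1 IPs (median 1.17), and from 11.1 to 15.9 in the 9 D2 inputs (median 13.8) to 0.452 to 2.11 in the 15 D2 IPs (median 1.07). The log2 fold changes were -3.53 (SE 0.15, edgeR adjusted p = 3.4e-24) and -3.45 (SE 0.14, edgeR adjusted p = 1.27e-24). Cdh5 had the lowest IP values of the set, 1 to 13 counts per D1 IP and 2 to 19 per D2 IP where inputs gave 129 to 234, for log2 fold changes of -5.16 (SE 0.21) and -4.57 (SE 0.19). Pecam1 fell by 3.87 in D1 and by 3.56 in D2, and Ocln by 3.06 and by 2.57.

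The transporters were depleted to very different degrees. Slc2a1 kept 15.2 to 19.5 CPM in D1 IPs (median 16.3) and 13.6 to 19.1 in D2 IPs (median 15.7), against 41.3 to 52.7 in all inputs. Its log2 fold changes of -1.47 (SE 0.05) and -1.59 (SE 0.05) were the smallest of the set in D1 and, with Kdr, in D2, and it was the highest member per length in IPs too, at 4.79 CPM per kilobase in D1 and 4.47 in D2. Abcb1a fell to 0.333 to 1.32 CPM in D1 IPs (median 0.666) and 0.501 to 2.50 in D2 IPs (median 1.02), by 4.68 (SE 0.16) and by 3.94 (SE 0.15).

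Of the receptors, Flt1 fell by 3.89 in D1 and by 3.58 in D2, Tek by 3.87 and by 3.46 and Tie1 by 4.19 and by 3.49. Kdr fell by 3.18 (SE 0.14) in D1 but by only 1.60 (SE 0.12) in D2, where it kept 2.01 to 4.29 CPM.

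Within pools, with IP and input matched by the number in their titles, each member was lower in the IP in 9 of 9 D1 pools and 9 of 9 D2 pools. Every IP lay below every input of its line, so these counts do not depend on the match, whereas the percentages do. Median IP levels as a percentage of the same pool's input were 2.00% in D1 and 2.84% in D2 for Cdh5, 3.52% and 6.88% for Abcb1a, 3.81% and 8.34% for Tie1, and 5.99% and 8.11% for Pecam1. Flt1 stood at 6.21% and 8.50%, Tek at 6.88% and 10.1%, Cldn5 at 8.31% and 7.05% and Ocln at 11.4% and 17.98%. Cldn5 and Slc2a1 were thus the members whose D2 median was not above the D1 median, and Kdr had the widest gap, with 10.4% against 42.0%.

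The depletion was set beside that of other cell types and of the wider vascular lists. The median over the 10 members was -3.87 in D1 and -3.48 in D2, where the median of all genes tested was -0.04 and -0.08. Of 20 further endothelial identity genes 18 fell in each line (medians -3.52 and -3.12), as did 12 of 13 mural cell genes (-3.84 and -3.28) and 6 of 6 genes of perivascular fibroblasts (-3.85 and -3.67). Glial markers were in the same range, with 8 of 8 lower in each line for astrocytes (-3.04 and -3.88), oligodendrocytes (-3.12 and -3.24) and microglia (-4.42 and -3.98).

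**Figure D3:**
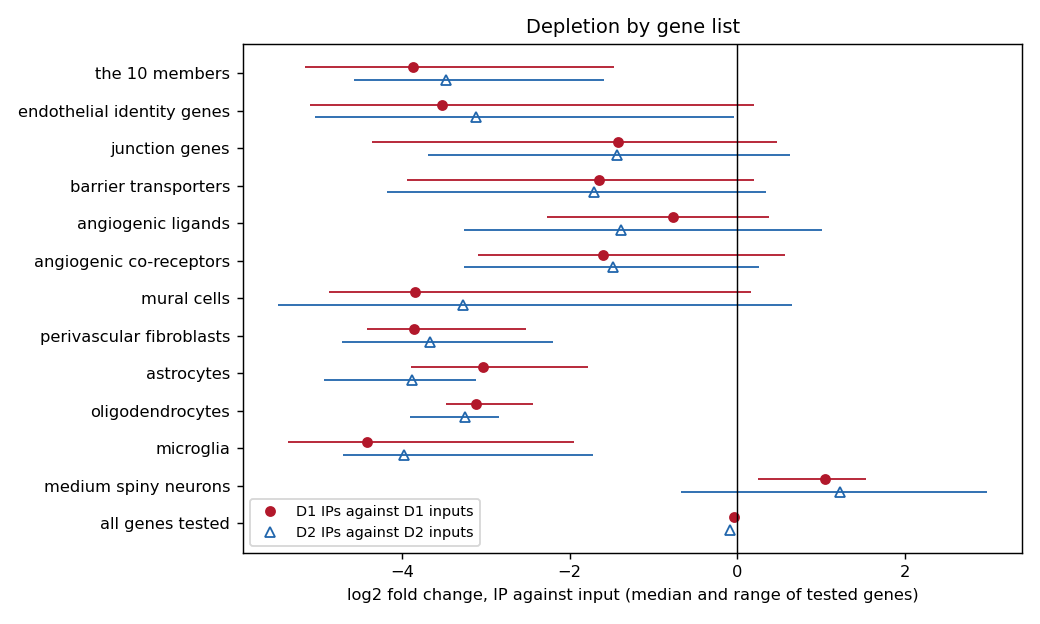
Median (symbols) and range (lines) of the log2 fold change of IP against input (horizontal axis) over the tested genes of each list, for D1 (circles) and D2 (triangles); no range is drawn for all genes. The members lie with the other vascular and glial lists well below 0, the medians of junction genes and barrier transporters lie between -1.42 and -1.71, and the medians of MSN genes lie above 0.

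The other lists lay nearer to 0. Of 11 tested junction genes outside the set, 9 fell in D1 and 8 in D2 (medians -1.42 and -1.43). Of 12 barrier transporters, 9 fell in each line (-1.65 and -1.71). Angiogenic ligands had medians of -0.77 and -1.39 and angiogenic co-receptors of -1.60 and -1.48, whereas MSN genes had medians of 1.04 and 1.22, with 6 and 5 of 8 called higher and 1 called lower, in D2.

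Over the 85 vascular list genes tested, 68 fell in D1 and 70 in D2. The 3 most depleted were Ly6a (an endothelial surface antigen, -5.10), Kcnj8 (a pericyte potassium channel subunit, -4.87) and Acta2 (smooth muscle actin, -4.79) in D1, and Acta2 (-5.47), Ly6a (-5.04) and Abcc9 (the partner subunit of Kcnj8, -4.88) in D2. At the other end were Ackr1 (1.26), Nrp2 (0.57) and Cldn12 (0.47) in D1 and Ackr1 (1.22), Wnt7a (1.01) and Tagln (0.65) in D2. Ackr1 overlaps Cadm3 on the same strand and Tagln overlaps Pcsk7 on the opposite strand, so their counts may hold reads of a neighbour.

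The extent of depletion was then compared between the lines in 1 model of 46 libraries. Kdr was depleted more in D1 than in D2 by 1.58 on the log2 scale (SE 0.18, edgeR adjusted p = 1.95e-08), and Abcb1a by 0.74 (SE 0.23, edgeR adjusted p = 0.0166). These were 2 of 10 members called, both with the lower ratio in D1, where 25.5% of all genes were called, 11.8% in that direction and 13.7% in the other. Tie1 stood at -0.70 (SE 0.27, edgeR adjusted p = 0.0502), and with the pool of mice as a block it passed, at -1.15. Cldn5 did not differ at the threshold (-0.08, interval -0.50 to 0.34), nor did Slc2a1 (0.12, interval -0.02 to 0.25), and 9 of the 10 values were below 0.

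Fitted within each stress group, Kdr was the only member called, in Con, in Res and in Sus libraries alike. The median difference was -0.45 over the members, -0.18 over the endothelial identity genes, -0.44 over mural cell genes, -0.33 over microglial and 0.46 over astrocyte genes, where that of all genes was -0.01. The summed levels of these other cells in IPs were 17.3 to 27.4 CPM in D1 and 17.9 to 36.6 in D2 for the 13 mural genes, 21.4 to 31.4 and 24.8 to 33.7 for the 8 microglial genes, and 345 to 565 and 274 to 529 for the 8 astrocyte genes. Their part in the results of Kdr and Abcb1a was not tested.

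A direct comparison of D1 IPs with D2 IPs gave the same members and Tie1. Kdr measured 0.8286, 0.935, 1.30 and 1.19 CPM in D1 Con, 1.38, 0.463, 0.874 and 1.28 in D1 Res and 0.969, 1.48, 1.19, 1.00 and 1.03 in D1 Sus IPs. In the D2 line it measured 2.01, 3.73, 3.69, 2.99 and 2.24 in Con, 2.45, 3.604, 3.72, 2.53 and 2.38 in Res and 4.29, 3.28, 2.59, 2.47 and 3.61 in Sus IPs. Every D2 IP was above every D1 IP, in each stress group, while the inputs of the lines overlapped (8.35 to 11.4 in D1, 7.22 to 11.8 in D2). The log2 difference between the IPs was -1.52 (SE 0.15, edgeR adjusted p = 1.97e-09).

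**Figure D4:**
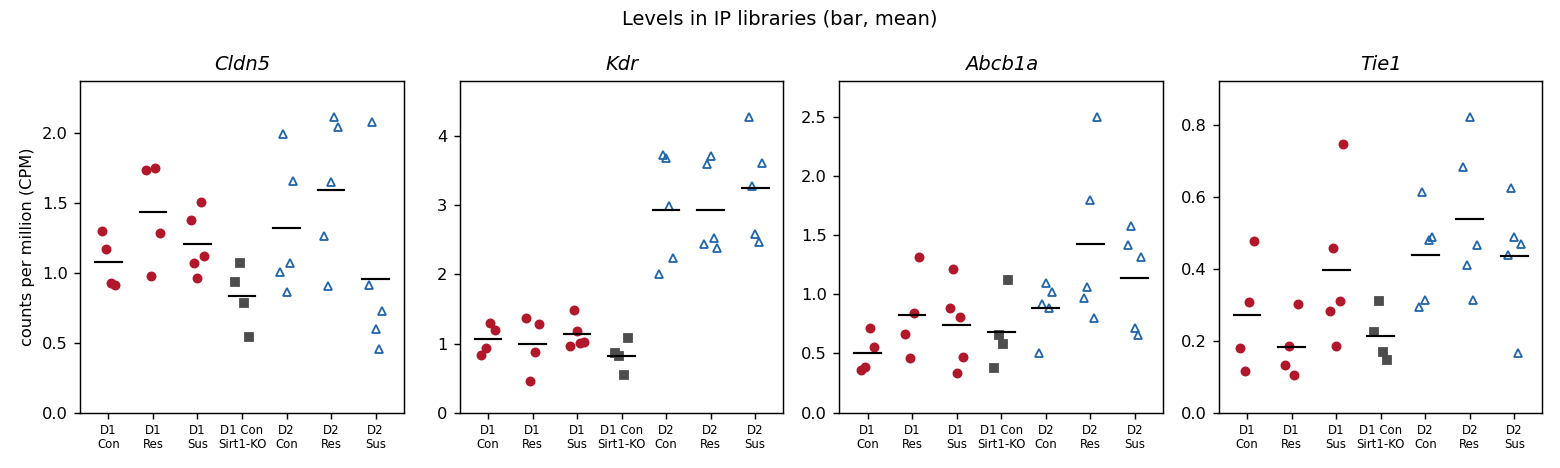
CPM (vertical axes, from 0) of Cldn5, Kdr, Abcb1a and Tie1 in each IP library by group; filled circles are D1, open triangles D2 and squares the D1 libraries labelled Sirt1-KO, and bars are group means. The Kdr points of the lines do not overlap (0.463 to 1.48 in D1, 2.01 to 4.29 in D2), while the other 3 genes overlap, and Cldn5 has 1 D2 Sus library at 2.08 above the other 4.

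Abcb1a (-0.74, SE 0.22, edgeR adjusted p = 0.00913) and Tie1 (-0.81, SE 0.26, edgeR adjusted p = 0.0124) were also lower in D1 IPs, with overlapping ranges. In all, 3 of 10 members passed the thresholds of fold and adjusted p, against 7.66% of 14224 genes, 2.71% lower and 4.94% higher in D1. Flt1 differed by -0.39 (edgeR adjusted p = 0.025), below the fold limit of 1.5. Kdr was the only member called in control IPs alone. With replicate numbers as blocks within each line, the fit compares the lines at replicate 1 only. Kdr alone was called there (Abcb1a -0.62, Tie1 -1.26), so this fit does not test the difference over all replicates. When genes averaging under 50 counts were dropped, Abcb1a and Tie1 were not tested.

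Kdr and Flt1 are the receptors of VEGF, and Tek and Tie1 those of the angiopoietin pathway, so their IP levels per length are set side by side. In D1 IPs, Flt1 stood at 0.175 and Kdr at 0.119 CPM per kilobase, in D2 IPs at 0.224 and 0.336, against 2.54 and 1.02 in inputs. By these means Kdr was below Flt1 in inputs and D1 IPs and above it in D2 IPs, but the IP ranges overlapped. Kdr ran from 0.051 to 0.164 and Flt1 from 0.107 to 0.268 in D1 IPs, and from 0.222 to 0.475 and 0.108 to 0.330 in D2 IPs. The CPM means in D2 IPs were 3.04 and 3.03. The order there thus rests on the exon lengths used, 9.03 and 13.5 kilobases. Tek stood at 0.119 in D1 and 0.162 in D2 IPs and Tie1 at 0.059 and 0.096.

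The third comparison asked whether stress changed what remained of these transcripts in the IPs. Few members passed at unadjusted p under 0.05, and the edgeR adjusted p of every member was at least 0.846. Between D1 Sus and D1 Con, 0 of 10 members were called, against 5.34% of 14224 genes (2.5% higher, 2.84% lower), with Flt1 at 0.49 (interval -0.01 to 1.00). Between D1 Res and D1 Con 0 of 10 were called, against 2.11% (1.01% higher, 1.1% lower), and 1 gene, no member, passed after adjustment (0.00703%). Between D1 Sus and D1 Res, Tie1 was called at 1.08 (SE 0.49), 1 of 10 members against 4.23% of genes, 1.93% higher and 2.3% lower.

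The Tie1 value rests on 3 to 16 counts per library. It measured 0.133, 0.185, 0.105 and 0.301 CPM in D1 Res IPs and 0.283, 0.457, 0.185, 0.309 and 0.747 in D1 Sus IPs. The groups overlapped, and without D1 Sus IP replicate 5, the highest, the difference was 0.75 and not called. Leaving out any of 4 other libraries (D1 Res IP replicate 1, 2 or 3, or D1 Sus IP replicate 2) also ended the call.

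In the D2 line, 0 of 10 members were called between Sus and Con (3.68% of genes, 2.07% higher and 1.6% lower), Flt1 was called between Res and Con (1 of 10, against 3.02% of genes, 1.57% higher and 1.46% lower) and Cldn5 between Sus and Res (1 of 10, against 1.66% of genes, 0.949% higher and 0.71% lower). Flt1 measured 1.46, 2.76, 2.90, 2.40 and 3.07 CPM in D2 Con IPs and 3.20, 2.50, 3.88, 3.71 and 4.29 in D2 Res IPs. Only the second Res library fell within the Con range. The difference was 0.49 (SE 0.22), and without D2 Con IP replicate 1, the lowest, it was 0.34 and not called. The call was also lost without D2 Con IP replicate 4 or D2 Res IP replicate 3, 4 or 5 (0.41 to 0.47), and in a fit of D2 IPs alone (0.49).

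Cldn5 in D2 IPs measured 1.00, 1.99, 0.863, 1.07 and 1.65 CPM in Con, 1.26, 0.901, 1.64, 2.11 and 2.04 in Res and 0.911, 2.08, 0.6001, 0.452 and 0.723 in Sus IPs. In Sus, replicates 3, 4 and 5 lay below every Con and Res library, replicate 1 lay near the lowest of them, and replicate 2 lay among the highest. Replicate 2 was also the highest D2 Sus library for Cdh5, Abcb1a, Tek and Tie1, though not for Flt1, Pecam1, Slc2a1, Kdr or Ocln. The Cldn5 values rest on 11 to 50 counts in Sus and 22 to 61 in Res libraries. Sus was lower than Res by 0.74 (SE 0.32) and the value against Con was -0.44 (SE 0.33). Without D2 Sus IP replicate 2 the values were -1.23 and -0.94, both called. Without any of 5 others (D2 Res IP replicate 4 or 5, D2 Sus IP replicate 3, 4 or 5) the difference from Res was -0.66 to -0.57 and not called. In the D1 line Cldn5 measured 0.913 to 1.30 in Con, 0.973 to 1.75 in Res and 0.963 to 1.51 in Sus IPs, with 0.17 for Sus against Con (interval -0.53 to 0.87).

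Of the wider vascular lists 68 genes were tested in IPs. In the D1 line, 3 were called higher and 2 lower between Sus and Con (2.5% and 2.84% of all genes), 5 and 0 between Res and Con (1.01% and 1.1%), and 2 and 4 between Sus and Res (1.93% and 2.3%). In the D2 line the counts were 5 and 0 between Sus and Con (2.07% and 1.6%), 1 and 0 between Res and Con (1.57% and 1.46%) and 1 and 0 between Sus and Res (0.949% and 0.71%).

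Dll4, a Notch ligand of sprouting vessels, was higher in D1 Sus (0.88) and in D1 Res IPs (0.98) than in D1 Con IPs, 2 comparisons that share the Con libraries, and the first was lost without D1 Con IP replicate 4 (0.68) or D1 Sus IP replicate 5 (0.67). The iron exporter Slc40a1 (0.62) and the receptor Notch1 (0.36) were also higher in D1 Sus than in D1 Con IPs, and Wnt7a, a ligand of barrier formation (-0.32), and Ly6c1 (-1.19) lower. Between D1 Res and D1 Con, the transporter Slc6a13 (1.88), the lymphatic VEGF receptor Flt4 (1.04), the VEGF family ligand Pgf (0.78) and the collagen Col1a2 (0.97) were higher.

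Between D1 Sus and D1 Res, Nrp2 (0.26) and Notch1 (0.38) were higher and Flt4 (-1.17), Col1a2 (-1.28), the smooth muscle myosin Myh11 (-1.005) and Ackr1 (-0.11) lower. Without D1 Res IP replicate 3, Col1a2 stood at -0.48 in this comparison and at 0.17 between Res and Con, and neither was called. In D2 IPs, the endothelial TGF-beta co-receptor Eng (0.66), the efflux transporter Abcc4 (0.47), the collagen Col1a1 (0.96), the claudin Cldn1 (1.03) and Pgf (0.61) were higher in Sus than in Con, Cldn1 was higher in Res than in Con (1.09), and Clec14a, an endothelial surface lectin, was higher in Sus than in Res (1.17). Of these IP calls, Dll4 between D1 Res and Con and Flt4 between D1 Sus and Res held without each single library, and each of the others was lost without at least 1 library. All of them had an edgeR adjusted p of 0.846 or above.

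The last comparison concerned the libraries labelled Sirt1-KO. Sirt1, the targeted deacetylase gene, measured 10.7 to 17.3 CPM in these 4 libraries (mean 14.6 ± 2.86, SD) and 13.9 to 17.6 in the 4 D1 Con IPs (mean 15.6 ± 1.53). The ranges overlapped, and the difference was -0.10 (edgeR adjusted p = 0.768). A count over the whole gene does not check the removal of single exons, so the libraries are named by their label and no direction is drawn from the genotype.

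Between the libraries labelled Sirt1-KO and the D1 Con IPs, 0 of 8 tested members were called, against 0.749% of 13626 genes, 0.279% higher and 0.47% lower, and Cdh5 and Tie1 had too few counts for the test (3 to 11 and 3 to 9 in the labelled libraries). Cldn5 measured 0.934, 1.07, 0.780 and 0.537 CPM in the libraries labelled Sirt1-KO and 1.30, 1.17, 0.923 and 0.913 in D1 Con IPs, overlapping, with a difference of -0.36 (interval -0.96 to 0.25, edgeR adjusted p = 0.554). Only Slc2a1 (0.08, interval -0.19 to 0.35) and Flt1 (-0.03, interval -0.49 to 0.44) had narrower intervals, and Kdr stood at -0.38 (interval -1.01 to 0.25). Differences within these intervals were not excluded.

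Against the 3 D1 Con inputs, all 10 members were lower in the libraries labelled Sirt1-KO, where 41.9% of 14720 genes were called, 26.8% lower and 15.2% higher. No library of theirs overlapped the inputs for any member. The log2 fold changes ran from -1.49 for Slc2a1 (SE 0.12) to -4.96 for Cdh5 (SE 0.34), with Cldn5 at -4.11 (SE 0.19), Abcb1a at -4.77 (SE 0.25) and Kdr at -3.57 (SE 0.21). The D1 depletion above uses these 3 inputs too, so the comparisons are not independent. Kdr, at 0.542 to 1.07 CPM, lay below every D2 IP.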

How the data were processed

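Per the labels, the authors trimmed reads with cutadapt, checked them with FastQC, aligned them to mm10 with STAR and counted reads per gene with HTSeq. The deposited values are raw counts, 18384265 to 31785984 per library, and 2 columns that match no sample used here were left out. D1 Con columns in both tables were identical. Rows that name no gene were dropped.

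Genes were filtered (minimum count 10, total 15), scaled by TMM and tested with edgeR's quasi-likelihood test (edgeR 4.0.16, R 4.3.3), with Benjamini-Hochberg adjustment over all genes tested. Stress comparisons were called at unadjusted p under 0.05, the study's rule, and the others at fold over 1.5 and adjusted p under 0.05, or at adjusted p under 0.05 alone for the depletion difference. Scripts were tested on simulated data. Alternatives were RLE scaling, library totals, other filters, DESeq2 1.42.0, replicate blocks, subsets and leaving out each library. Named vascular genes were those called with the smallest p, up to 5 in each direction for stress, and the 3 most and 3 least depleted, with the 8 genes most like Cldn5. The members, lists and tests were chosen with earlier results of these data known. Each library is a pool of 2 mice, so p-values measure the spread between pools. The main depletion fits had no term for the pool, so IP and input of the same pool entered as independent libraries.

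IP and input were matched as a pool by the number in their titles. The deviations of matched samples correlated at -0.11 to 0.43 (median 0.0148), over 0.1 in 5 of 18 pools. These correlations alone do not establish the match, on which the percentages of input and the pool block rest.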

Additional observations from a re-analysis of the deposited data

Results flagged for a closer look

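Cldn5 in D2 Sus IP replicate 2 stood at 2.08 CPM, away from the other 4 libraries of its group at 0.452 to 0.911, with a gap of 0.718 of the group's range, above Dixon's limit. This was 1 of 100 groups examined, and chance flags about 1 in 20. The same library was also the highest D2 Sus IP for Cdh5 (0.79 CPM), Abcb1a (1.58), Tek (1.08) and Tie1 (0.623). For Flt1, Pecam1, Slc2a1, Kdr and Ocln it was not the highest.

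The Sus against Con difference in inputs differed between the mouse lines for Slc2a1 (-0.23) and Abcb1a (-0.37), and neither passed adjustment over all genes.

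The depletion from input to IP differed between D1 and D2 for Kdr (-1.58) and Abcb1a (-0.74), both past an edgeR adjusted p of 0.05.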

How the results depend on the processing

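Every member tested was called lower in IPs under each alternative run, for D1, D2 and the libraries labelled Sirt1-KO; with a mean of at least 50 counts, Ocln was not tested, nor Tie1 in the last, which left 9, 9 and 8 members. Kdr was called in the depletion difference under each alternative, at -1.73 to -1.45, and Abcb1a under all but the fits within Con, Res or Sus libraries (-0.98 to -0.34). The number of members called moved in these cases: input Res against Con 1 with library totals, the line difference 1 with DESeq2, D1 IP Sus against Con 1 with DESeq2 and 1 with IPs of that line alone, and input Sus against Con 1 with the replicate number as a block. Input Sus against Res gave 1 in D1-line and 5 in D2-line inputs. D1 IP against D2 IP gave 1 with a mean of at least 50 counts and 1 in control IPs. It also gave 1 with the replicate block, which compares the lines at replicate 1 only. The depletion difference gave 1 in each of Con, Res and Sus libraries, and 3 (with Tie1) under RLE, library totals, the higher filter, DESeq2 and the pool block. D1 IP Sus against Res gave 0 with a mean of at least 50 counts, 0 with the replicate block and 0 in D1 IPs alone, D2 IP Sus against Res 0 with the higher filter and 0 in D2 IPs alone, and D2 IP Res against Con 0 in D2 IPs alone. Adjusted p gave 0 in every stress comparison. Col3a1 between Sus and Res changed sign in D2-line inputs (0.0148). The higher filter left only Flt1, Slc2a1 and Kdr tested in IPs by stress or line, so Tie1, Cldn5 and Abcb1a were not tested there. The other causes were not tested.

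Leaving out 1 library, the members called ranged from 0 to 1 in input Sus against Con and Res against Con, 1 to 4 in Sus against Res, 0 to 3 in the line difference, 2 to 3 in the depletion difference and 3 to 3 between the IPs of the lines. In IPs they ranged from 0 to 1 in D1 Sus against Con, D1 Res against Con, D2 Sus against Con and D2 Sus against Res, and 0 to 2 in D1 Sus against Res and D2 Res against Con. The Cldn5 difference of the permutation test ranged from -0.130 to -0.047. With library totals the median of all genes against input was -0.23 in D1 IPs (-0.04 with TMM), -0.21 in D2 IPs (-0.08) and -0.29 in the libraries labelled Sirt1-KO (-0.01), and that of the line difference was -0.12 (-0.00498). Across stress groups, replicate numbers are only numbers (correlations of -0.34 to 0.37 in inputs, over 0.1 in 7 of 18 pairs). Over all IPs, the median count was under 20 for Cdh5, Tie1, Ocln, Tek and Pecam1 (6 to 19).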
